A study of Mus musculus with 36 samples.

Results

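The comparison set TM- dendritic cells (DCs) from cultures treated with soluble thrombomodulin (sTM) against TM- DCs from untreated cultures. TM- DCs are the cells of a bone marrow culture that an antibody against thrombomodulin (TM) did not retain. Arrays were chosen by their titles, and 8 of the 36 arrays of the series qualified, with 2 treated and 2 untreated arrays in experiment 3 and the same numbers in experiment 4. A further 2 arrays of treated TM- DCs belong to experiment 2, where no untreated TM- DCs were hybridized, and these entered no within-experiment test.

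Bone marrow came from Balb/c mice aged 10 to 12 weeks and was grown for 6 days with GM-CSF (granulocyte-macrophage colony-stimulating factor) at 100 ng/ml, so treated and untreated cultures shared the growth factor. Treated cultures received 200 nM sTM, a recombinant human protein made of the extracellular domains of thrombomodulin, on day 4 and were harvested on day 6. Cells for sorting were then exposed to a rat antibody against TM and to magnetic beads that bind rat antibodies. TM- and TM+ DCs were taken apart in this way, so both had met the antibody and the beads. The TM- fraction is thus defined by the lack of surface TM on day 6, and a difference in which cells remained in that fraction cannot be told apart from a difference within the same cells. As these are bulk RNA samples, fewer cells of a type and less RNA per cell cannot be told apart either. Within an experiment both arrays of a group are labelled as biological replicates, with no word on separate cultures or mice, so the p-values rest on the spread between arrays, part of which may be technical.

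Thrombomodulin is a membrane protein, best known from the endothelium, that binds thrombin and turns it towards activation of the anticoagulant protein C. DCs sample antigen and show it to T cells. When they sense danger they mature, which means that they make cytokines such as IL-12, raise costimulatory molecules such as CD40 and often release type I interferon, which induces a large set of antiviral genes.

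Values below are log2 intensities of transcript clusters, and differences are treated minus untreated means on the log2 scale. The limma test was run on 19938 genes, and those whose p stayed under 0.05 after Benjamini-Hochberg adjustment over all of them are named as called. Probe brightness differs between genes, so levels are compared only within a gene. On the 8 arrays *Itgax* (CD11c, the integrin that marks DCs) lay between 11.73 and 12.21 and *H2-Aa* (an MHC class II chain) between 11.61 and 12.17. These genes do not stand for all markers of conventional DCs. *Flt3*, another such marker, was at 6.02 on untreated array 4-2, below the median of all transcript clusters on that array (6.69). *Thbd*, which encodes TM, lay between 5.65 and 6.06 on the 8 arrays of TM- DCs and was not called in either experiment. Its range in TM+ DCs of the same experiments was 5.76 to 6.92, which overlaps that of TM- DCs but reaches higher. These ranges join both experiments and treatments, and TM+ and TM- DCs were not tested against each other for *Thbd* level. Its levels in TM- DCs lay below the median of all transcript clusters on each array (6.69 to 6.81). The treated array 3-2 stood apart. Its correlation with treated array 3-1 was 0.9855 over all genes, whereas the other within-group pairs reached 0.9947, 0.9968 and 0.9977, and results of experiment 3 are therefore also given without it.

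With 1 estimate of the spread for both experiments, more genes were called in experiment 3 than in experiment 4, and few were called in both. In experiment 3, 493 genes were higher (2.47% of those tested) and 166 lower (0.833%) in treated TM- DCs, and in experiment 4, 47 were higher (0.236%) and 13 lower (0.0652%). Without adjustment, p under 0.05 was reached by 2265 higher and 1039 lower genes of experiment 3, and by 1038 and 423 of experiment 4. Only 3 genes were called in the same direction in both experiments (0.0150%), all higher, and 10 genes were called in opposite directions. The size of the effect itself differed between the experiments for 386 genes (1.94%), of which 234 were more positive in experiment 3 and 152 in experiment 4. Of the 493 genes higher in experiment 3, 222 also had a difference above 0 in experiment 4, and of the 166 lower genes 59 also had a difference below 0. Over all genes 8870 of 19938 had a difference above 0 in experiment 4, so 222 of 493 is near the share of all genes. In experiment 3 the number above 0 over all genes was 13178 of 19938. The median difference of all genes was 0.09 in experiment 3 and -0.02 in experiment 4.

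The order of the counts rests on the shared spread, since limma on each experiment alone called 476 genes in experiment 3 (338 higher and 138 lower) and 831 in experiment 4 (595 and 236), with 19 in the same direction and 74 in opposite directions. The counts also moved with single arrays. Without treated array 3-2, 753 genes were called in experiment 3 (491 higher and 262 lower), 524 of them among the original 659, and 404 in experiment 4. Without treated array 3-1 the counts were 6824 and 404. Leaving out untreated array 3-1 or 3-2 left 173 and 156 calls in experiment 3 and 11 in experiment 4 each, and leaving out an array of experiment 4 left between 396 and 427 in experiment 3 and between 0 and 5 in experiment 4. In each of these fits a lone array is assumed to vary like the other groups. When both experiments were averaged with experiment as a random effect, limma called no gene, the smallest adjusted p was 0.4885, and 637 genes were higher and 201 lower at an unadjusted p under 0.05. Taking the mean of both within-experiment differences, with only the spread between arrays of a group as error, gave 200 higher and 48 lower genes. Each experiment is therefore described on its own.

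**Figure D1:**
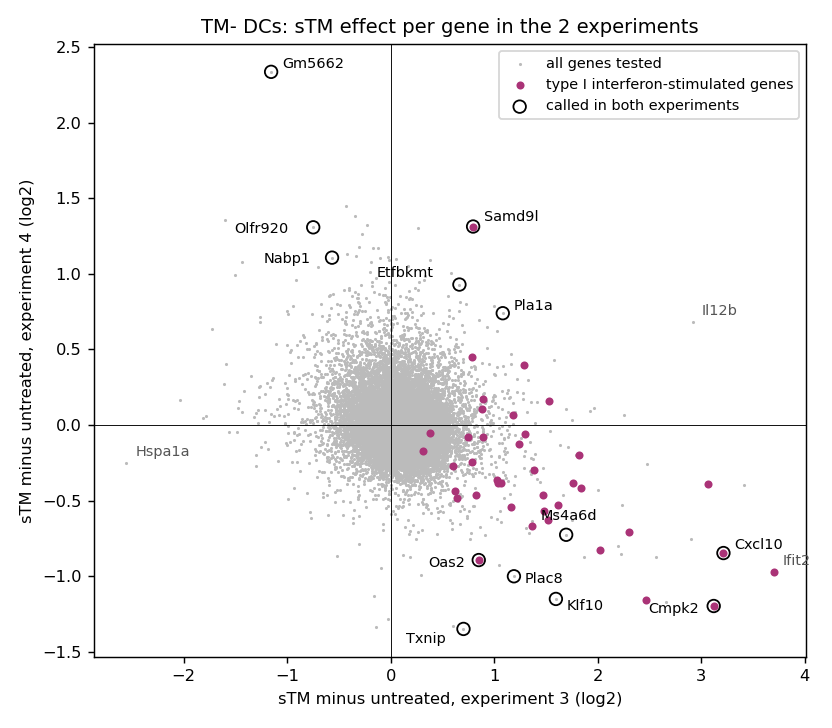
Each point is a gene, with the sTM minus untreated difference (log2) of experiment 3 on the horizontal and of experiment 4 on the vertical axis. Type I interferon-stimulated genes (39) lie to the right of 0 in experiment 3 and mostly below 0 in experiment 4, and circles mark the 13 genes called in both experiments, of which 3 were higher in both.

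Interferon-stimulated genes made up the clearest group in experiment 3. Of 39 measured type I interferon-stimulated genes all had a difference above 0, beside 13178 of 19938 over all genes. Of the 39, 35 were called higher, with a median difference of 1.24 beside 0.09 for all genes. The 4 genes without a call were *Irf9* (0.38), *Herc6* (0.89), *Phf11d* (1.53) and *Lgals3bp* (0.31). Without treated array 3-2 the median was 1.29 and 37 were called. Without untreated array 3-1 or 3-2 the medians were 1.29 and 1.19 with 23 and 19 calls, and without any array of experiment 4 between 31 and 32 were called. In experiment 4 the median was -0.38, 7 of the 39 had a difference above 0, *Samd9l* was called higher, and *Cmpk2*, *Oas2* and *Cxcl10* were called lower. The number lower in experiment 4 was 14 without treated array 3-1 or 3-2 and 0 without any of the other 6 arrays. The difference between experiments was called for 29 of the 39, all more positive in experiment 3.

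Promoter sequences of 3 of these genes are given because *Cxcl10* and *Bst2* moved with the group and *Samd9l* did not follow it in experiment 4. Each is the 250 bases before the RefSeq gene start on mouse build GRCm38.p6, written 5′ to 3′ in the direction of the gene. *Cxcl10* is on the minus strand at chr5:92348890-92349139, *Bst2* on the minus strand at chr8:71537473-71537722 and *Samd9l* on the minus strand at chr6:3399572-3399821. Capitals mark matches to GAAANNGAAA on either strand, a form of the interferon-stimulated response element that interferon-regulated transcription factors bind.
Cxcl10: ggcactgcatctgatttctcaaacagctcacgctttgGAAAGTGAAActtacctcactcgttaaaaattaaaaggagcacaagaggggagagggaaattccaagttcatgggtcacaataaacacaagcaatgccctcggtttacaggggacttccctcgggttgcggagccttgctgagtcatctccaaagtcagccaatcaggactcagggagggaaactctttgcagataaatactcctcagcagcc
Bst2: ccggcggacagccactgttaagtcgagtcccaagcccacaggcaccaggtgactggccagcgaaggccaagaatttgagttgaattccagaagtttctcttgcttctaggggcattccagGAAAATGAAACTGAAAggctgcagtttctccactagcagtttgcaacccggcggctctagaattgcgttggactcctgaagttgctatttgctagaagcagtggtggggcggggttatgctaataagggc
Samd9l: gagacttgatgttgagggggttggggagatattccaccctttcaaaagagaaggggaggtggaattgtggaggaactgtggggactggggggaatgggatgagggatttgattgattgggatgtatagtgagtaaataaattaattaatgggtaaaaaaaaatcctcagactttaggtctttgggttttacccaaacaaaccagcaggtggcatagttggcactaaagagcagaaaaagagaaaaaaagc
The *Cxcl10* window held 1 match and that of *Bst2* held 2 overlapping matches, whereas the *Samd9l* window held none. Among all tested genes with a RefSeq promoter, 531 of 15614 windows of this length held a match (3.4%), and among the interferon-stimulated genes 12 of 30 did (40.0%). In experiment 3 the 12 genes with a match had a median difference of 1.69 and the 18 without one 0.89, and in experiment 4 the medians were -0.40 and -0.39. The 3 windows shown do not stand for the list. *Ifit2*, *Cmpk2* and *Ifi44l* held no match and rose by 3.70, 3.12 and 3.07 in experiment 3. *Slfn5* and *Slfn8* held a match and had 0.39 and 0.07 in experiment 4. A part of the element in these differences was not tested.

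*Ifit2*, an interferon-induced RNA-binding protein that blocks viral translation, showed the largest difference of the named genes in experiment 3. Its levels in experiment 3 were 6.73 and 6.27 in untreated and 10.49 and 9.92 in treated TM- DCs, and in experiment 4 they were 7.81 and 7.80 in untreated and 6.98 and 6.69 in treated TM- DCs. Treated arrays were thus above both untreated arrays in experiment 3 and below both in experiment 4. The difference was 3.70 (SE 0.21, adjusted p = 8.77e-06) in experiment 3, and -0.97 (adjusted p = 0.0991) in experiment 4. *Cxcl10*, a chemokine for activated T cells, moved from 7.60 and 7.42 to 10.79 and 10.67 in experiment 3. In experiment 4 it moved from 8.53 and 8.61 to 7.80 and 7.64. The 2 experiments were opposite and the groups did not overlap in either, with a rise of 3.22 (SE 0.13, adjusted p = 1.59e-06) and a fall of -0.85 (SE 0.13, adjusted p = 0.0352).

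*Cmpk2*, a mitochondrial nucleotide kinase next to viperin in the genome, had levels of 8.48 and 8.30 untreated and 11.64 and 11.39 treated in experiment 3. Its levels in experiment 4 were 8.74 and 8.83 untreated and 7.47 and 7.71 treated. Again the treated arrays lay above in experiment 3 and below in experiment 4, with differences of 3.12 and -1.20, both called (adjusted p = 2.84e-06 and 0.00909). *Oas2*, which makes the second messenger that activates RNase L, rose by 0.85 in experiment 3 and fell by 0.89 in experiment 4. Other large rises of experiment 3 were those of *Ifi44l* (3.07), *Cxcl11* (2.90, a chemokine that shares its receptor with *Cxcl10*) and *Ifit3* (2.47), none of which was called in experiment 4 (-0.39, -0.76 and -1.16). *Bst2* (tetherin, which holds budding virus at the cell surface) rose by 1.16 in experiment 3 and had a difference of -0.54 in experiment 4.

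The calls of *Ifit2*, *Cxcl10*, *Cmpk2*, *Ifi44l*, *Cxcl11* and *Bst2* in experiment 3 held in all 8 fits with 1 array left out. That of *Ifit3*, whose treated arrays were 11.01 and 9.35, was lost without untreated array 3-1 or 3-2, and that of *Oas2* without untreated array 3-2. Calls in experiment 4 were less stable. Those of *Cmpk2*, *Cxcl10* and *Oas2* were kept only when treated array 3-1 or 3-2 was left out.

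Genes that interferon-gamma typically induces also stood higher in experiment 3. All 19 measured had a difference above 0, beside 13178 of 19938 over all genes, and 13 were called, with a median of 0.94. *Iigp1*, *Gbp4*, *Gbp5* and *Irgm1*, all GTPases of the defence against intracellular pathogens, rose by 2.26, 1.91, 1.47 and 1.39. *Cxcl9*, another T cell chemokine, rose by 1.19. In experiment 4 the median was -0.09 and no member was called. The list shares 5 members with the genes of MHC class I and peptide loading, of which 7 of 17 were called higher in experiment 3 (median 0.60) and none in experiment 4 (median -0.09). *Tap1*, a subunit of the peptide transporter, rose by 0.94. Without untreated array 3-1 or 3-2, 8 and 7 interferon-gamma-inducible genes and 1 and 0 class I genes were called, and without treated array 3-1 the counts were 16 and 11. Without treated array 3-2 they were 13 and 7. Among the ligands, receptors and sensors of interferon, 1 of 20 was called in experiment 3, *Tlr3* (1.35), a receptor for double-stranded RNA.

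**Figure D2:**
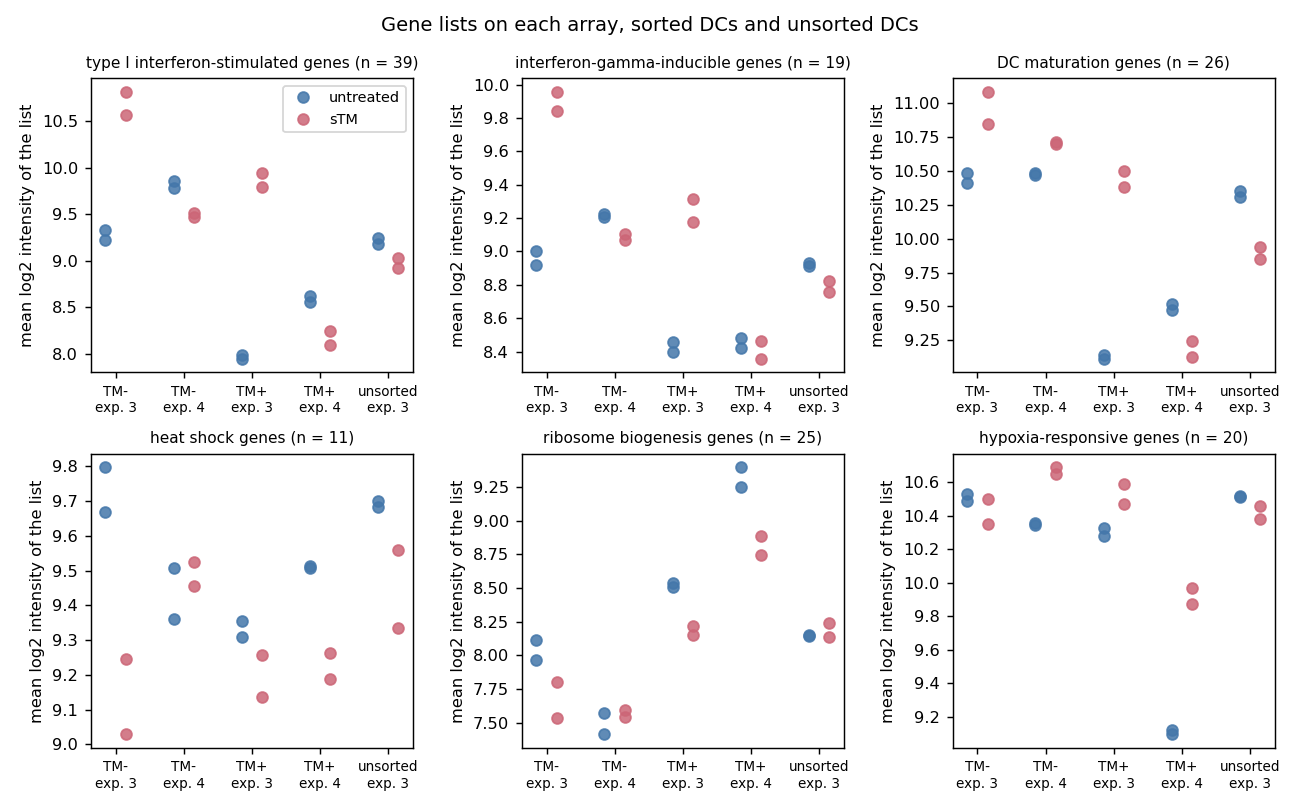
Mean log2 intensity of the members of 6 gene lists on each array (points) of TM- and TM+ DCs in experiments 3 and 4 and of unsorted DCs in experiment 3, with untreated and sTM-treated cultures in separate colours. The interferon-stimulated genes of treated TM- DCs lie at 10.81 and 10.56 in experiment 3 against 9.33 and 9.22 untreated, and at 9.51 and 9.47 in experiment 4 against 9.85 and 9.78.

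Maturation genes rose in part in TM- DCs of experiment 3. The list median there was 0.27, beside 1.26 in TM+ DCs and -0.33 in unsorted DCs of the same experiment. In TM- DCs 10 of 26 DC maturation genes were called higher in experiment 3 and none in experiment 4 (median 0.16, 18 of 26 above 0). Without treated array 3-2 the count in experiment 3 was again 10, without untreated array 3-2 it was 5, and without treated array 3-1 it was 13, with 6 others lower. In experiment 4, 6 were called when either treated array of experiment 3 was left out.

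*Il12b*, the p40 chain shared by IL-12 and IL-23, had levels of 9.21 and 8.97 in untreated and 12.37 and 11.65 in treated TM- DCs of experiment 3. In experiment 4 its levels were 9.87 and 9.84 untreated and 10.53 and 10.53 treated. Treated arrays were the higher ones in both experiments, with a rise of 2.92 (SE 0.20, adjusted p = 3.52e-05), or 7.56-fold, in experiment 3 and a difference of 0.68 (adjusted p = 0.282) in experiment 4 that was not called. *Cd40*, the receptor for T cell CD40 ligand, was at 9.48 and 9.50 untreated and 11.37 and 11.48 treated in experiment 3. In experiment 4 it was at 10.51 and 10.61 untreated and 10.67 and 10.64 treated. The groups of experiment 4 lay side by side, and the difference was 1.93 (adjusted p = 2.33e-05) in experiment 3 and 0.09 in experiment 4.

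*Il15* (a growth factor of NK and memory T cells) and *Il15ra*, its presenting receptor, rose by 1.40 and 1.26 in experiment 3 and had differences of 0.02 and -0.09 in experiment 4. *Il23a*, the p19 chain that pairs with p40 in IL-23, rose by 1.69, whereas *Il12a*, the p35 chain that pairs with it in IL-12, fell by 0.68. *Cd83*, a surface marker of mature DCs, rose by 0.58, a call kept only without treated array 3-1 or 3-2. All of these except *Il12a* and *Cd83* kept their call in experiment 3 in all 8 fits with 1 array left out. *Il12a* lost it without untreated array 3-1 or 3-2.

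Several genes of maturation were not called in either experiment. *Cd86*, a ligand of T cell CD28, had differences of 0.40 (adjusted p = 0.118) and 0.55 (adjusted p = 0.117), with both treated arrays above both untreated arrays each time. *Cd80*, the other CD28 ligand, had differences of -0.07 and 0.39, and another transcript cluster of the gene had -0.28 and 1.47 (adjusted p = 0.0856 in experiment 4). *Ccr7*, the receptor that guides DCs to lymph nodes, had -0.30 and 0.37. In experiment 3 both genes turned with 1 treated array, to 0.26 and 0.045 without array 3-2 and to called values of -0.40 and -0.65 without array 3-1. *Tnf* had differences of 0.56 (adjusted p = 0.0699) and 0.25, *Il6* of -0.66 and 0.72, and the anti-inflammatory cytokine *Il10* of 0.15 and -0.21. For *Il6* treated array 3-2 was at 10.88 and treated array 3-1 at 12.12, so the value in experiment 3 rests on array 3-2. Of the other genes examined in the study, *Mrc1* (the mannose receptor, CD206), *Copa* (a coat protein of Golgi vesicles) and *Alox15* (a lipoxygenase) were called in neither experiment. Among 20 genes of NF-kB feedback 6 were higher in experiment 3 and none in experiment 4, with 0 higher in experiment 3 when either untreated array of that experiment was left out. The only called MHC class II gene of 10 was *H2-Eb1*, higher by 0.74 in experiment 3.

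**Figure D3:**
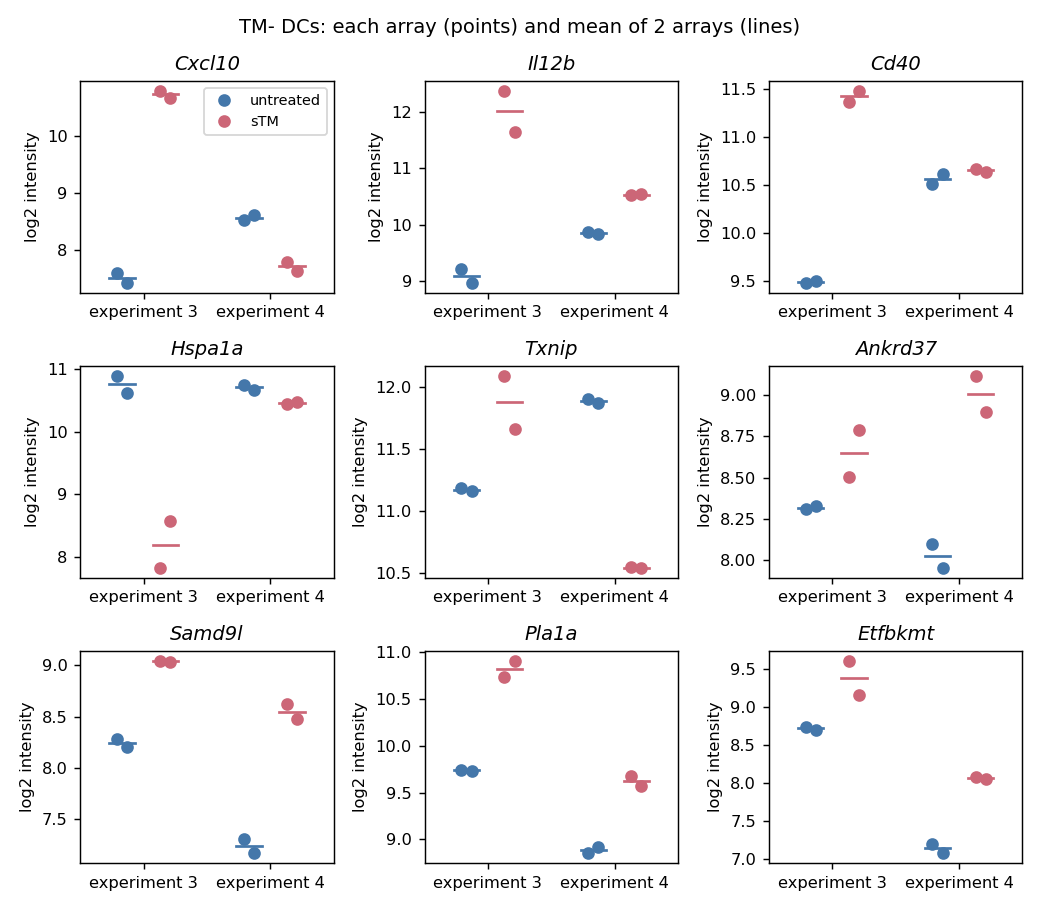
Log2 intensity of 9 genes on each of the 8 arrays of TM- DCs, by experiment and treatment. *Cxcl10* and *Txnip* moved up in experiment 3 and down in experiment 4, *Il12b*, *Cd40* and *Hspa1a* were called in experiment 3 only, *Ankrd37* in experiment 4 only, and *Samd9l*, *Pla1a* and *Etfbkmt* moved up in both.

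Further large rises of experiment 3 came from genes of several lists. *Mertk*, a receptor for the uptake of dying cells, was at 7.35 and 7.05 in untreated and 9.44 and 9.36 in treated TM- DCs of experiment 3. In experiment 4 it was at 8.40 and 8.46 untreated and 7.72 and 7.54 treated. The order of treated and untreated arrays was therefore opposite, with a rise of 2.20 (adjusted p = 2.33e-05) in experiment 3 and a difference of -0.80 (adjusted p = 0.0543) in experiment 4. *Fcgr1*, the high-affinity receptor for IgG, rose by 1.87 and had -0.87 in experiment 4. *Mgl2* (a lectin for galactose-type sugars), *Pltp* (phospholipid transfer protein) and *Timp1* (an inhibitor of metalloproteinases) rose by 1.63, 1.79 and 0.99 and were not called in experiment 4. *Slc2a3*, a glucose transporter, rose by 1.07. All 6 calls held with any single array left out. Macrophage markers did not move as a list, with 3 of 17 higher and 1 lower in experiment 3 (median 0.18) and none called in experiment 4 (median -0.16).

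Among genes that fell in experiment 3, heat shock genes had the lowest list median. Of 11 measured 3 were lower, the median was -0.60, and 9 had a difference at or below 0, while in experiment 4 none was called and the median was 0.12. *Hspa1a*, the inducible HSP70 chaperone, had levels of 10.89 and 10.61 untreated and 7.83 and 8.57 treated in experiment 3. In experiment 4 the levels were 10.74 and 10.67 untreated and 10.43 and 10.47 treated. Treated arrays were below untreated arrays in both, with a fall of -2.55 (SE 0.21, adjusted p = 8.73e-05) in experiment 3 and a difference of -0.25 in experiment 4. *Hsph1* (-0.60) and *Hsp90aa1* (-0.67) were lower in all 8 fits with 1 array left out, but their calls were lost in at least 6 of them. Without treated array 3-2 the list median was -0.36 with 2 called, without treated array 3-1 it was -0.58 with 7 called, and without any other array 1 was called, *Hspa1a*.

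Genes of ribosome biogenesis followed, with 3 of 25 lower in experiment 3 and 4 of 25 above 0 (median -0.41). *Npm1* (nucleophosmin), *Ncl* (nucleolin) and *Gnl3* (nucleostemin), all abundant nucleolar proteins, were lower, with differences of -1.28, -1.10 and -0.77. For *Npm1* the treated arrays were 9.69 and 8.53, and the calls of *Npm1* and *Ncl* were lost without treated array 3-2. Without it the list median was -0.55, again with 3 called, and without untreated array 3-1 or 3-2 none was called. In experiment 4 the median was 0.10 and none was called. *Gnl3* lay below 0 there too, between -0.72 and -0.51 in the fits with 1 array left out.

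Immediate early genes, which growth factor and stress signals switch on within minutes, gave 3 lower in experiment 3 and 2 higher in experiment 4. *Egr1*, a zinc finger factor of this class, was at 10.04 and 10.04 untreated and 8.18 and 8.72 treated in experiment 3, a fall of -1.59 (adjusted p = 0.000574). *Fos* fell by 1.08 and *Fosb* fell by 0.82. In experiment 4 *Dusp6*, a phosphatase that limits ERK signals, rose by 1.10 and *Fosl1* by 0.77. *Rgs2*, a brake on G protein signals, fell by 1.73 in experiment 3 and had 0.64 (adjusted p = 0.0915) in experiment 4. Without untreated array 3-1 or 3-2, 1 immediate early gene was lower in experiment 3. Without untreated array 3-1, 3-2, 4-1 or 4-2 or treated array 4-1 or 4-2, none was higher in experiment 4, and without treated array 3-1 or 3-2, 4 were.

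Granulocyte and granule markers were lower in part. Of 21 granulocyte markers 4 were called lower in experiment 3, *Ngp* (neutrophilic granule protein, -1.47), *S100a9* (-0.93) and *S100a8* (-0.85), the chains of calprotectin, and *Mmp9* (a gelatinase, -0.56), and none was called in experiment 4. Another 9 of the 21 had a difference above 0 in experiment 3, and without treated array 3-1 there were 5 called higher and 5 lower. The median of the list was -0.18 in experiment 3 and -0.03 in experiment 4. *Stfa2*, a stefin also typical of neutrophils, fell from 8.75 and 8.35 to 6.65 and 6.82 in experiment 3 and lay at 10.56 and 10.53 against 10.54 and 10.65 in experiment 4. Its level thus differed more between experiments than between treatments. The mean over the list was 8.06 and 8.01 untreated and 7.78 and 7.92 treated in experiment 3, and 8.18, 8.29, 8.23 and 8.22 on the arrays of experiment 4. The share of neutrophils in the TM- fraction was not measured, and its part in these results was not tested. Without untreated array 3-1 or 3-2, 1 and 2 of the markers were lower in experiment 3.

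Other genes that fell in experiment 3 belonged to different families. *Serpinb10* (a protease inhibitor of myeloid cells) fell by 2.03, *Serpinb2* (plasminogen activator inhibitor 2) fell by 1.27, *Hamp* (hepcidin, the iron hormone) fell by 1.78, *Cd300ld* (a myeloid immunoglobulin-like receptor) fell by 1.61 and *Cd24a* (CD24, a surface glycoprotein of DC subsets and precursors) fell by 1.28. Treated array 3-2 was the lowest for most of these, at 6.66 against 8.14 for *Serpinb10*, 9.25 against 10.64 for *Hamp* and 9.50 against 10.63 for *Cd24a*, whereas for *Cd300ld* the pair was 7.80 and 7.84. The falls of *Serpinb10*, *Serpinb2* and *Hamp* remained called without array 3-2 and were lost without untreated array 3-1 or 3-2. That of *Cd24a* was lost without any untreated array, and that of *Cd300ld* was kept in all 8 fits.

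Of the 60 genes called in experiment 4, 13 were also called in experiment 3, and several with large changes were not. *Ppp1r10*, a regulatory subunit of protein phosphatase 1, was at 7.02 and 7.33 untreated and 8.67 and 8.58 treated. In experiment 3 it was at 9.23 and 9.18 untreated and 8.61 and 8.94 treated. It rose by 1.45 (SE 0.16, adjusted p = 0.00562) in experiment 4, with a difference of -0.43 (adjusted p = 0.188) in experiment 3, and in both the treated arrays moved towards the levels of the other experiment. *Bbs10* (a chaperonin-like protein of the cilium) and *Gpr65* (a proton-sensing receptor) rose by 1.32 and 1.26 in experiment 4, and *F3* (tissue factor, which starts coagulation) by 0.86. *Gadd45g*, a stress sensor, and *Rasgef1b*, an exchange factor for small GTPases, both fell by 1.33.

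Hypoxia-responsive genes lay above 0 almost throughout in experiment 4, though few were called. Of 20 measured 19 had a difference above 0 and 2 were called, with a median of 0.26 beside -0.02 for all genes. *Ankrd37*, a target of hypoxia-inducible factor, was at 8.09 and 7.95 untreated and 9.12 and 8.90 treated, a rise of 0.98 (adjusted p = 0.0270), and in experiment 3 it had 0.33. *Egln3*, the oxygen-sensing prolyl hydroxylase PHD3, rose by 0.75 (adjusted p = 0.0483) and had -0.27 in experiment 3. Over the list the median in experiment 3 was -0.22, or -0.05 without treated array 3-2 and -0.08 after quantile normalization. Both calls of experiment 4 were lost in 6 of the 8 fits with 1 array left out, and 5 members were called when treated array 3-1 or 3-2 was left out.

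**Figure D4:**
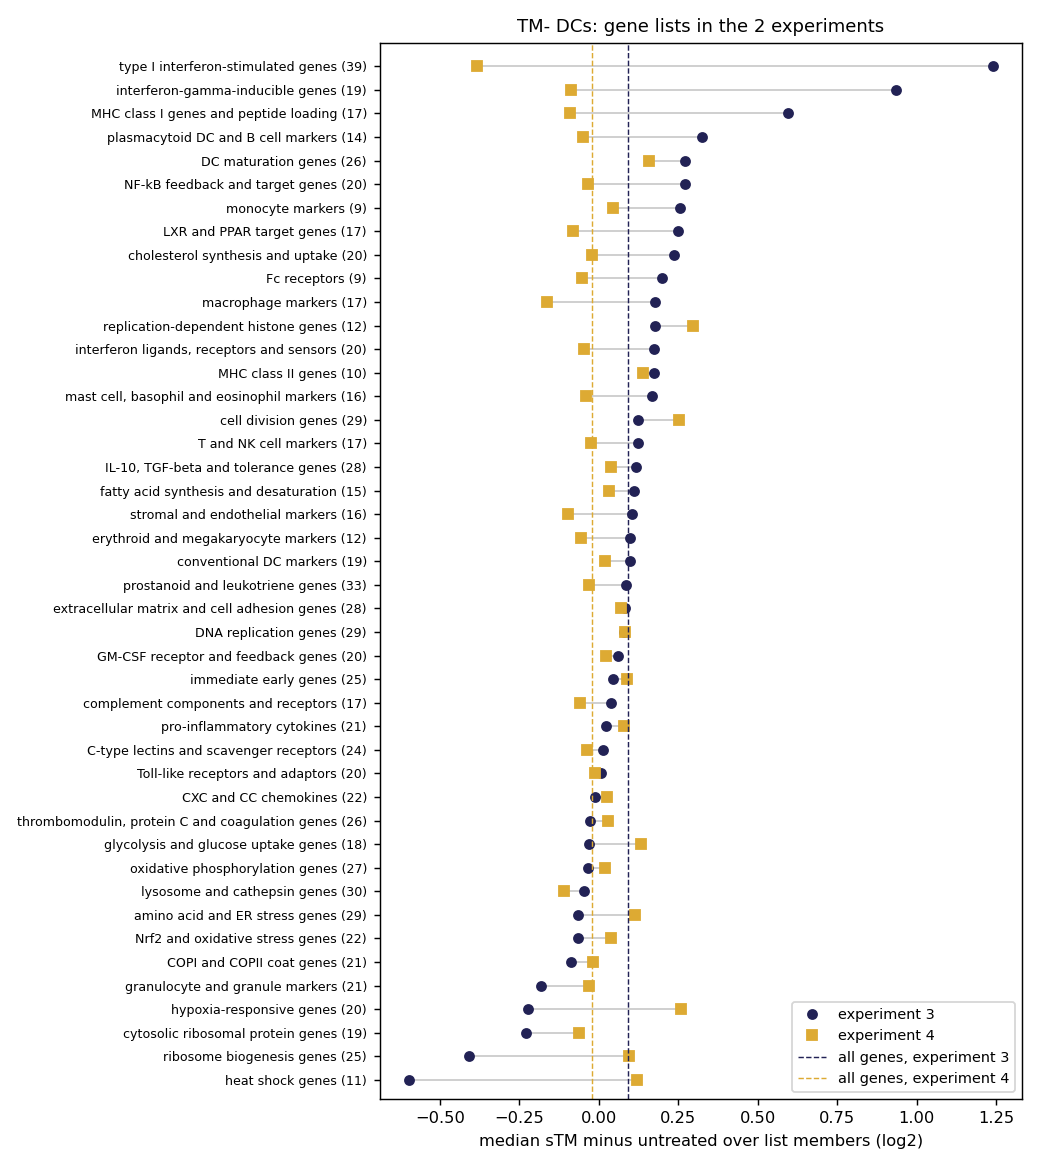
Median sTM minus untreated difference (log2) of each of 44 gene lists in experiment 3 and in experiment 4, with the median of all genes as a line. The interferon lists lie far to the right in experiment 3 (1.24 and 0.94) and heat shock genes to the left (-0.60), whereas in experiment 4 the medians run from -0.38 for type I interferon-stimulated genes to 0.30 for replication-dependent histone genes.

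The 3 genes that rose in both experiments were *Samd9l*, *Pla1a* and *Etfbkmt*. *Samd9l*, an interferon-induced restriction factor of the SAMD9 family, was at 8.28 and 8.20 untreated and 9.04 and 9.04 treated in experiment 3, while in experiment 4 it was at 7.31 and 7.17 untreated and 8.62 and 8.48 treated. The groups did not overlap, with rises of 0.80 (SE 0.13, adjusted p = 0.00617) and 1.31 (SE 0.13, adjusted p = 0.00562). *Pla1a*, a phospholipase that acts on phosphatidylserine, was at 9.74 and 9.74 untreated and 10.73 and 10.91 treated in experiment 3 and, in the other, at 8.85 and 8.92 untreated and 9.68 and 9.57 treated. It rose by 1.08 (adjusted p = 0.000998) and 0.74 (adjusted p = 0.0483). *Etfbkmt*, a methyltransferase of a mitochondrial electron transfer protein, rose from 8.74 and 8.69 to 9.60 and 9.16 and from 7.20 and 7.07 to 8.08 and 8.05. Its rises were 0.66 (adjusted p = 0.0438) and 0.93 (adjusted p = 0.0434), and another transcript cluster of the gene had 0.50 and 0.28 without a call.

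For all 3 genes the untreated levels of experiment 3 lay well above those of experiment 4. None of the 3 stayed called in both experiments in every fit with 1 array left out. All 3 remained without treated array 3-1 or 3-2, 1 remained without treated array 4-2, and none remained without any other array. In TM+ DCs the differences of *Samd9l* were 0.87 and -0.54, those of *Pla1a* 2.37 and -0.26 and those of *Etfbkmt* 1.10 and 1.06 in experiments 3 and 4. A few genes came near to a call in both. *Serpinb8*, an intracellular protease inhibitor that the study examined, was at 9.79 and 9.90 untreated and 9.09 and 9.05 treated in experiment 3, while experiment 4 gave 9.50 and 9.39 untreated and 8.90 and 8.84 treated. Treated arrays were lower in both, with a fall of -0.77 (adjusted p = 0.00641) and a difference of -0.58 (adjusted p = 0.109). *Cysltr1*, a leukotriene receptor named after its values were seen, rose by 0.94 in experiment 3 and had 0.51 (adjusted p = 0.174) in experiment 4.

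The 10 genes called in opposite directions comprised 7 that were higher in experiment 3 and lower in experiment 4, *Cxcl10*, *Cmpk2*, *Oas2*, *Plac8*, *Ms4a6d*, *Klf10* and *Txnip*, and 3 that went the other way, *Nabp1*, *Olfr920* and *Gm5662*. *Txnip*, an inhibitor of thioredoxin and of glucose uptake, was at 11.19 and 11.16 untreated and 12.09 and 11.66 treated in experiment 3. In experiment 4 it was at 11.91 and 11.87 untreated and 10.55 and 10.54 treated. It rose by 0.70 and fell by 1.35. *Klf10*, an early target of TGF-beta, rose by 1.60 and fell by 1.15. *Plac8*, a cysteine-rich protein of myeloid cells, rose by 1.19 and was lower in experiment 4 (adjusted p = 0.0375), and *Ms4a6d*, a tetraspan membrane protein, had 1.70 and -0.73. Untreated cells of the 2 experiments also differed, and *Klf10* had 7.96 and 7.81 in experiment 3 but 9.54 and 9.51 in experiment 4. *Nabp1*, a single-stranded DNA-binding protein, had -0.57 and 1.11, and the predicted gene *Gm5662* had -1.15 and 2.34.

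TM- and TM+ DCs of the same experiments were set against each other by the difference of their sTM effects, averaged over both experiments. This difference was called for 715 genes (3.59%), 369 more positive in TM- and 346 more positive in TM+ DCs. In TM+ DCs 1097 genes were higher and 669 lower with sTM in experiment 3, and 596 and 564 in experiment 4. Calls within TM+ DCs, here and below, come from the fit of 16 arrays, and those within TM- DCs from the fit of 8 arrays. The numbers of calls in TM- and TM+ DCs are therefore not on the same footing. With a spread over 20 arrays of sorted DCs, 1572 genes of experiment 3 and 281 of experiment 4 were called in TM- DCs. Interferon-stimulated genes behaved alike in part. Their median in TM+ DCs was 1.70 in experiment 3 (38 of 39 higher) and -0.40 in experiment 4 (16 lower), and the difference between fractions was called for 8 of the 39. Among cytokine genes, *Il6* had -0.66 and 0.72 in TM- DCs and 3.47 and 0.11 in TM+ DCs (difference between fractions -1.76, adjusted p = 0.00411), *Il12a* gave -0.97 and *Tnf* 0.56, and 7 of 21 pro-inflammatory cytokines were more positive in TM+ DCs and 1 in TM- DCs. Within experiment 3 the counts were 8 and 0, and within experiment 4 they were 1 and 2. In TM+ DCs 19 of 26 DC maturation genes were higher in experiment 3, and in experiment 4 there were 8 lower and 1 higher. Within experiment 3, 12 of the 26 were more positive in TM+ DCs and 0 in TM- DCs. Within experiment 4 the counts were 1 and 10. Of 20 genes of NF-kB feedback 15 were higher in TM+ DCs of experiment 3 (median 0.89) and 2 were lower in experiment 4.

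Genes of cholesterol synthesis and uptake gave a steadier contrast. Of 20 genes 12 were more positive in TM- DCs and none in TM+ DCs, with a median difference between fractions of 0.65 (0.62 in experiment 3 and 0.55 in experiment 4). Within TM- DCs 1 gene was called in either experiment, *Cyp51* (lanosterol demethylase), which rose by 0.78 in experiment 3, and the medians were 0.24 and -0.02. In TM+ DCs 9 were lower in experiment 3 and 12 in experiment 4, with medians of -0.47 and -0.58. The difference between fractions was 1.44 for *Idi1*, 1.24 for *Cyp51*, 1.10 for *Hmgcs1* and 0.73 for *Fdft1*, enzymes from the mevalonate pathway through squalene synthesis to the sterol rings. The number called was 12 after quantile normalization and after centring on the 75th percentile, and from 9 to 15 with 1 array of TM- DCs left out. *Fads2*, a fatty acid desaturase, gave 1.02.

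Hypoxia-responsive genes gave the opposite sign. Here 9 of 20 were more positive in TM+ DCs and none in TM- DCs, with a median of -0.46, and 14 of 20 were higher with sTM in TM+ DCs of experiment 4. Without untreated array 4-1, treated array 4-1 or treated array 4-2 the count was 4, and without untreated array 3-2 or 4-2 it was 6. Granulocyte markers, for which 9 were more positive in TM- DCs and 3 in TM+ DCs (median 0.45), did so with values in TM+ DCs far below 0. *Ltf* (lactoferrin) had -0.27 and 0.02 in TM- and -3.28 and -0.73 in TM+ DCs, and *S100a8* and *S100a9* gave differences between fractions of 1.56 and 1.57, while *Mmp9* gave -1.83. Of 16 markers of mast cells, basophils and eosinophils, 5 were more positive in TM- DCs and 1 in TM+ DCs (median 0.31), with *Epx* (eosinophil peroxidase) at 2.13. *Mcpt2* and *Mcpt1* (mast cell proteases), which are not on this list and were named for the size of their difference, gave 2.91 and 2.23. None of *Ltf*, *Mcpt1*, *Mcpt2* and *Epx* was called in TM- DCs. *Btla*, an inhibitory receptor, gave 1.92, *Hpgds* (haematopoietic prostaglandin D synthase) 1.37 and *Kcnma1* (a potassium channel) -2.56.

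**Figure D5:**
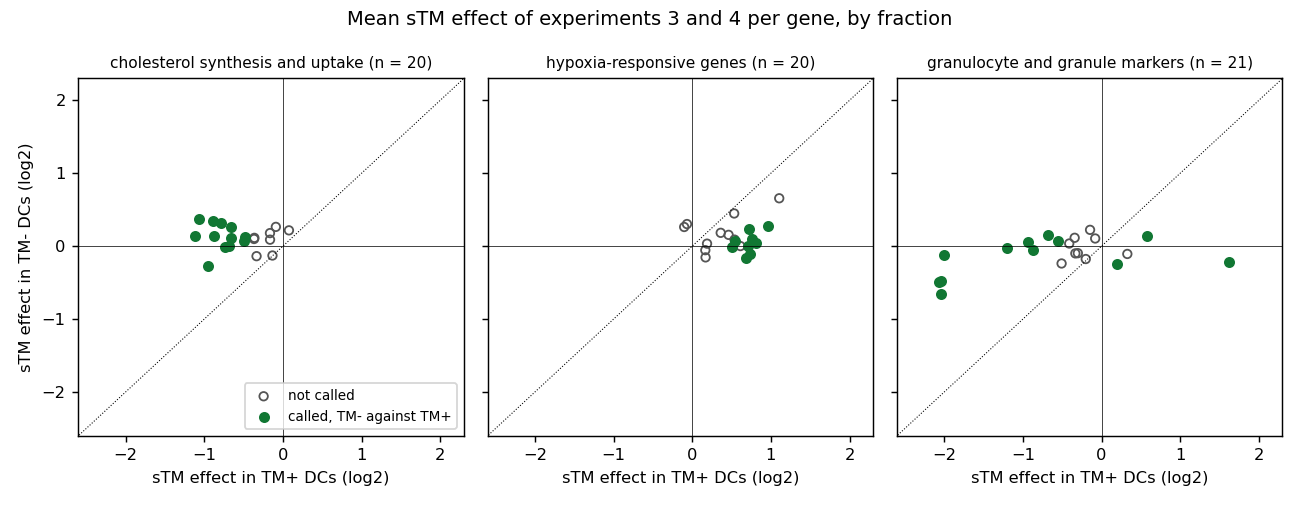
Mean sTM effect over experiments 3 and 4 (log2) in TM- DCs and in TM+ DCs for the measured genes of cholesterol synthesis and uptake, of the hypoxia response and of granulocytes. The list medians are 0.12, 0.08 and -0.10 in TM- DCs and -0.57, 0.54 and -0.41 in TM+ DCs.

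Unsorted DCs of experiment 3 were also available with and without sTM. Mean levels of the interferon-stimulated genes were 9.25 and 9.18 in untreated and 9.03 and 8.92 in treated unsorted DCs, so treated arrays were slightly lower, and the median difference was -0.18 where TM- and TM+ DCs had 1.24 and 1.70. In treated cultures the unsorted arrays lay below all TM- and TM+ arrays for 35 of the 39 genes (89.7%), and in untreated cultures for 0 of 39. Over all genes the share was 10.3% in treated and 4.73% in untreated cultures. DC maturation genes gave 14 of 26 and interferon-gamma-inducible genes 10 of 19 in treated cultures. The sources used here do not say whether unsorted and sorted cells of experiment 3 shared cultures, and the part of sorting itself in the rise was not tested. The 2 treated TM- arrays of experiment 2, which have no untreated partner, had means of 9.03 and 9.24 for these genes, below both treated arrays of experiment 3 and below both of experiment 4.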

How the data were processed

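RNA of TM- DCs was hybridized to Affymetrix Mouse Gene 1.0 ST arrays. The authors corrected, normalized and summarized probes with RMA and deposited intensities on a linear scale for 35556 transcript clusters, and these were converted to log2 here without further scaling or filter. The deposited table gives no detection calls, and RMA sets the arrays it handles together to a shared distribution, so a shift of all transcripts would not be seen. Exactly 1 symbol of the platform annotation was paired with 21789 clusters. The cluster with the highest mean per symbol gave 19938 genes, 19856 with a gene ID in the RefSeq table.

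Differences were fitted with limma 3.58.1 in R 4.3.3 as means of each treatment within each experiment over the 8 arrays, for experiment 3, experiment 4 and their difference. The mean effect used experiment as a random block, in keeping with the study's mixed model, and TM- against TM+ DCs used the 16 arrays of experiments 3 and 4. All p-values were adjusted by Benjamini-Hochberg over all genes. The fits were tested on simulated data. The simulated arrays were independent, with a common mean and spread per gene apart from the added sTM effects. The check therefore does not cover an array that stands apart, unequal spread or a shift between experiments.

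The genes named were the largest called changes of each experiment, of both, of their difference, of each list and of TM- against TM+ DCs, and genes the study examined. Of 44 gene lists, 909 of 989 memberships were measured, and each list is described by counts and medians without a set test. The comparison, members and lists were chosen with earlier results of these data known. Alternatives were other scalings, a filter on dim genes, all clusters, trend and robust moderation, other pools for the spread, the array number as a block, other call limits and leaving out each array. Counts of list members and of kept calls without 1 array, list counts by scaling and the place of unsorted DCs were added after seeing the data. Promoters are RefSeq windows on GRCm38.p6.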

Additional observations from a re-analysis of the deposited data

Results flagged for a closer look

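For 49 of the named genes the effect of sTM in TM- DCs differed between experiments 3 and 4 by the limma test of the difference itself. On the log2 scale the effect of experiment 3 exceeded that of experiment 4 by 4.68 for *Ifit2*, 4.32 for *Cmpk2*, 4.06 for *Cxcl10*, 3.66 for *Cxcl11*, 3.63 for *Ifit3*, 3.45 for *Ifi44l*, 3.00 for *Mertk*, 2.75 for *Klf10* and 2.74 for *Fcgr1*. Smaller gaps in this direction were 2.51 for *Gbp4*, 2.42 for *Ms4a6d*, 2.24 for *Il12b*, 2.19 for *Iigp1*, 2.19 for *Plac8*, 2.05 for *Txnip*, 1.99 for *Pltp*, 1.94 for *Gadd45g* and 1.84 for *Cd40*. Next in size were 1.76 for *Gbp5*, 1.76 for *Mgl2*, 1.74 for *Oas2*, 1.70 for *Bst2*, 1.59 for *Il23a*, 1.58 for *Irgm1*, 1.58 for *Cxcl9*, 1.38 for *Il15* and 1.35 for *Il15ra*. The smallest were 1.31 for *Timp1*, 1.19 for *Rasgef1b*, 1.17 for *Fads2*, 0.96 for *Slc2a3* and 0.93 for *Tap1*. Effects more negative in experiment 3 gave differences of -3.49 for *Gm5662*, -2.37 for *Rgs2*, -2.30 for *Hspa1a*, -2.06 for *Olfr920*, -1.995 for *Egr1*, -1.88 for *Cd300ld*, -1.88 for *Ppp1r10*, -1.86 for *Stfa2* and -1.67 for *Nabp1*. Further negative differences were -1.62 for *Ngp*, -1.55 for *Bbs10*, -1.53 for *Gpr65*, -1.46 for *Serpinb2*, -1.18 for *F3*, -1.14 for *Hsp90aa1*, -1.05 for *Dusp6* and -1.03 for *Egln3*. 

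For 39 named genes the effect of sTM, averaged over both experiments, differed between TM- and TM+ DCs by the limma test of that difference. Effects were more positive in TM- DCs by 2.91 for *Mcpt2*, 2.23 for *Mcpt1*, 2.13 for *Epx*, 1.92 for *Btla*, 1.88 for *Ltf*, 1.57 for *S100a9*, 1.56 for *S100a8*, 1.39 for *Ngp* and 1.37 for *Hpgds*. Lesser differences of this sign were 1.24 for *Cyp51*, 1.02 for *Fads2*, 0.98 for *Stfa2*, 0.89 for *Samd9l*, 0.87 for *Mertk*, 0.86 for *H2-Eb1*, 0.86 for *Ppp1r10*, 0.73 for *Fdft1* and 0.65 for *Iigp1*. At the low end stood 0.56 for *Tnf*, 0.55 for *Cd86*, 0.52 for *Dusp6* and 0.52 for *Cysltr1*. Effects more positive in TM+ DCs gave values of -2.56 for *Kcnma1*, -1.83 for *Mmp9*, -1.76 for *Il6*, -1.72 for *Txnip*, -1.32 for *Serpinb10*, -1.11 for *Klf10*, -1.06 for *Serpinb8*, -1.01 for *Cd300ld* and -0.99 for *Timp1*. Smaller negative values were -0.98 for *Serpinb2*, -0.97 for *Il12a*, -0.83 for *Gbp5*, -0.82 for *Cd83*, -0.80 for *Gbp4*, -0.58 for *Cmpk2*, -0.58 for *Slc2a3* and -0.48 for *Egln3*. The explanation of these differences was not tested.

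A single array lay far from the other 3 of its group for 3 genes. *Cd83* in treated array 4-1 was 11.84, *Itgax* in treated array 3-1 was 12.21 and *Flt3* in untreated array 4-2 was 6.02 on the log2 scale. Chance marks about 1 in 20 groups by this measure, and these groups of 4 join both experiments.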

How the results depend on the processing

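All named genes kept their direction where they were called under every alternative run, and 242 of their values lost a call while 68 gained one. Quantile normalization gave 5 genes with the same direction in both experiments, 22 with opposite directions, 584 for the difference between experiments and 1122 for TM- against TM+ DCs, and moved the median of all genes in experiment 3 from 0.09 to below 0 (-0.003). Centring on the 75th percentile gave 35 in experiment 4, and leaving out dim genes gave 5 in the same direction. All transcript clusters gave 288, 0, 0, 0 and 153 for experiment 3, experiment 4, same direction, opposite direction and the difference between experiments. Moderation with trend and robust variances gave 130, 8, 37 and 615 from experiment 4 on. A spread over 20 arrays of sorted DCs gave 1572, 281, 21, 70 and 1055, and each experiment fitted alone gave 476, 831, 19 and 74 from experiment 3 to opposite directions, which turns the order of the experiments. A limit of 2-fold left 186, 27, 0 and 4. Unadjusted p-values gave 3304, 1461, 193, 305 and 2709, then 838 for the mean effect and 2887 for TM- against TM+ DCs. The mean effect had 3 calls with experiment as a fixed factor and 248 as the mean of both contrasts.

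Leaving out 1 array of TM- DCs gave 156 to 6824 genes in experiment 3, 0 to 404 in experiment 4, 0 to 75 in the same and 0 to 148 in opposite directions, 121 to 4889 for the difference between experiments and 453 to 3707 for TM- against TM+ DCs. With the array number as a replicate block, 552 genes were called in experiment 3, 27 in experiment 4, 1 in the same direction and 6 in opposite directions. Deviations of treated and untreated TM- arrays with the same number correlated at 0.0872 in experiment 3 and 0.0891 in experiment 4. Between TM- and TM+ arrays of the same number and treatment the correlations ran from -0.25 to 0.31. With 2 arrays a group, these values cannot show whether the number pairs arrays. All groups share 1 estimate of the spread, so leaving out an array of experiment 3 changes calls in experiment 4 though its differences stay the same. What else lies behind these shifts was not tested. With 2 arrays a group, the number of arrays limits precision, and low intensities were not separated from background.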

Other observations

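Genes of amino acid shortage and endoplasmic reticulum (ER) stress were lower in part in experiment 3, where 4 of 29 were called. *Dnajb9* (an ER co-chaperone), *Atf4* (the transcription factor of the integrated stress response), *Hspa5* (the ER chaperone BiP) and *Manf* (a protein released on ER stress) were lower, with differences of -1.22, -0.59, -0.59 and -0.55, and none of the list was called in experiment 4. The list medians were -0.06 and 0.12. All 4 calls were lost without any one of the untreated arrays, 1 gene was lower without treated array 4-1 or 4-2 and with the replicate block, and without treated array 3-1 there were 6 higher and 8 lower. Cytosolic ribosomal protein genes had no call, and 3 of 19 had a difference above 0 in experiment 3 (median -0.23). Treated arrays 3-1 and 3-2 had list means of 11.31 and 10.86, and the median was -0.07 without array 3-2 and -0.39, with 11 called lower and 1 higher, without array 3-1. Among Toll-like receptors and adaptors, *Tlr8* (a sensor of single-stranded RNA), *Ly86* and *Cd180* (partners in a receptor complex related to that of LPS) rose by 0.69, 0.58 and 0.88, and *Tlr2* (a receptor for lipoproteins) and *Tlr13* (a sensor of bacterial ribosomal RNA) had -0.59 and -0.72, both called lower, in experiment 3. All 5 calls were lost without untreated array 3-1 or 3-2.

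Genes of cell division had no call in either experiment, and 27 of 29 had a difference above 0 in experiment 4 (median 0.25), beside 8870 of 19938 over all genes. Untreated arrays 4-1 and 4-2 had list means of 6.60 and 7.01, and the median was 0.03 without array 4-1 and 0.45, with 2 called higher, without array 4-2. In experiment 3, 20 of 29 lay above 0 (median 0.12), beside 13178 of 19938 over all genes, and the median ran from -0.04 without treated array 3-2 to 0.36, with 7 called higher, without treated array 3-1. Of 33 prostanoid and leukotriene genes, *Cysltr1*, *Alox12* (a lipoxygenase) and *Ephx1* (an epoxide hydrolase) rose by 0.94, 0.90 and 0.81 in experiment 3, *Hpgds* fell by 0.93, and none was called in experiment 4. GM-CSF receptor and feedback genes had 3 calls of 20 in experiment 3, *Socs1* (0.81), *Stat5a* (0.67) and *Pparg* (-0.55).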
